A study of Homo sapiens with 10 samples.

Results

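The ID proteins and the E-protein transcription factors were followed in MOLT-4, an established line of human T-ALL (acute leukaemia of T-lymphoblasts), over 6 h of exposure to MABL, an antibody against the surface receptor CD47. The members were 6 genes, and all probe sets were taken whose annotation gives ID1, ID2, ID3, TCF3, TCF4 or TCF12 as the only symbol. There were 26 such probe sets among 22215 probe sets on the arrays, controls left out. A further probe set, 213931_at, carries the symbols of ID2 and ID2B together and was not used. Of the 26, 9 passed a filter on low values and were tested (1 for ID1, 1 for ID3 and 7 for TCF3), among 4276 tested probe sets in all, and 17 lay below it. The family was chosen by the level of ID1 at 1 h in earlier results of these data, so the time course of ID1 is given as a description without a test, and so are the values of every member at 1 h.

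The arrays were Affymetrix U133A, 10 in number, with 2 replicates at each of 0 h, 0.5 h, 1 h, 3 h and 6 h. The label of every sample, 0 h included, gives the agents as 10 ug/mL MABL and 50 ug/mL GAM, an abbreviation that is not spelled out. No time-matched untreated cells were analysed here, so in a difference from 0 h the agents cannot be told apart from handling and time in culture. The labels do not call the replicates separate cultures. The p-values then cover the spread between these arrays, possibly only a technical one. MOLT-4 is 1 established line, and fewer cells of a kind and less RNA per cell cannot be told apart in such bulk samples. Levels below are square roots of the deposited scores, read as log2. Each difference is a mean at a later time minus the mean at 0 h on that scale, and folds depend on that reading.

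E proteins (TCF3, TCF4 and TCF12, also known as E2A, E2-2 and HEB) are basic helix-loop-helix factors that bind the E-box motif as dimers, with each other or with tissue-specific partners. ID proteins have the dimerisation helices but no basic region, so that an E protein bound to an ID protein no longer binds DNA. In developing T cells, E proteins sustain genes of the early thymocyte programme, and ID3 is induced when antigen-receptor signals lower E-protein activity. ID1 is known as a gene switched on quickly by serum and by BMP signals.

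The start-site regions of ID1 and ID3 are shown because these were the only ID genes above the filter and their time courses differed in shape. Both are the 250 bases before the annotated start, from RefSeq on GRCh38.p14, read 5′ to 3′ on the strand of the gene. ID1 lies at chr20:31605039-31605288 on the plus strand and ID3 at chr1:23559502-23559751 on the minus strand. Capitals mark matches to TATAAA or CCAAT on either strand, and the run of capitals near the end of the ID1 sequence holds overlapping matches on both strands.
ID1: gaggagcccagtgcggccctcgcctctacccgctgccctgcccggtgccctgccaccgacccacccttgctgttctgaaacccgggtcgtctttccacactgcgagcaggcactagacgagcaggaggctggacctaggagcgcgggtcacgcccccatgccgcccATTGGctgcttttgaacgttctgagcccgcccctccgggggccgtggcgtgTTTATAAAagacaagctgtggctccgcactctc
ID3: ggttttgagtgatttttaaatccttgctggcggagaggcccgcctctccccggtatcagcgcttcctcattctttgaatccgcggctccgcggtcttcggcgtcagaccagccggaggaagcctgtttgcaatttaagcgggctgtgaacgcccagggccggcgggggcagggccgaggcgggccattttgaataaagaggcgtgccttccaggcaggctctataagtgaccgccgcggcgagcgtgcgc
In ID1 the forward TATAAA lay at -31 to -26 from the start and ATTGG, the reverse complement of CCAAT, at -84 to -80. The ID3 sequence held no exact match to either motif and has no capitals. Near variants, such as tataag close to the end of the ID3 sequence, were not searched. Among 35114 RefSeq promoter windows of the same length, 10.7% held TATAAA and 32.0% held CCAAT. Neither sequence held the E-box CANNTG, which 61.8% of windows held, nor the motif GGCGCC, found in 16.4%, nor a CArG box, found in 1.16%. ID1 held 2 matches to GGGCGG, on the reverse strand, a motif found in 42.6% of windows. ID3 held 1 match to TGACG, at -150 to -146 on the reverse strand, a motif found in 21.2%. All 7 of the motifs were searched on both strands. A match is a description of these letters and not a site shown to be used.

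ID1 was high at 1 h and at no other sampled time. Its probe set, 208937_s_at, read 5.93 and 5.93 at 0 h, 6.06 and 5.98 at 0.5 h, 8.30 and 8.23 at 1 h, 6.05 and 5.98 at 3 h, and 5.95 and 5.90 at 6 h. The lower of the 1 h arrays, at 8.23, stood 2.18 above the highest array of any other time, at 6.06, and the 8 arrays of the other times spanned 0.15. The mean was 5.93 ± 0.0044 (SD, n = 2) at 0 h and 8.27 ± 0.049 (SD, n = 2) at 1 h. That is a difference of 2.34 with an SE of 0.0921, or 5.06-fold. Between 0.5 h and 1 h the level went up by 2.25, and between 1 h and 3 h it went down by the same amount (-2.25). The means at 0.5 h and 3 h were 0.09 above the mean at 0 h, and the mean at 6 h equalled it to 2 decimals (-0.00).

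Among the 4276 tested probe sets, that of ID1 ranked 1 for the difference at 1 h, ahead of 1.82 for FOLR1, a folate receptor gene. The submitters describe a fold rule, both replicates over 2 times the geometric mean at 0 h, and ID1 met it at 1 h with 9 of the tested probe sets in all (0.210%). The height of a pulse was taken as the mean at 1 h minus the highest mean of the other 4 times. For ID1 this was 2.25. The next height was 0.81, for 218280_x_at, which has no single symbol. After it came MT1X, a metallothionein gene, at 0.57 and ALOX5AP, the 5-lipoxygenase activating protein gene, at 0.55. Only 5 probe sets reached 0.5, and ID1 alone reached 1. When all arrays were set to the same median, the height for ID1 was 2.23 and the next 0.97, with ID1 still ranked 1, and after another round of quantile normalization they were 2.19 and 0.91. These ranks describe the contrast that led to ID1 being chosen and carry no test.

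**Figure D1:**
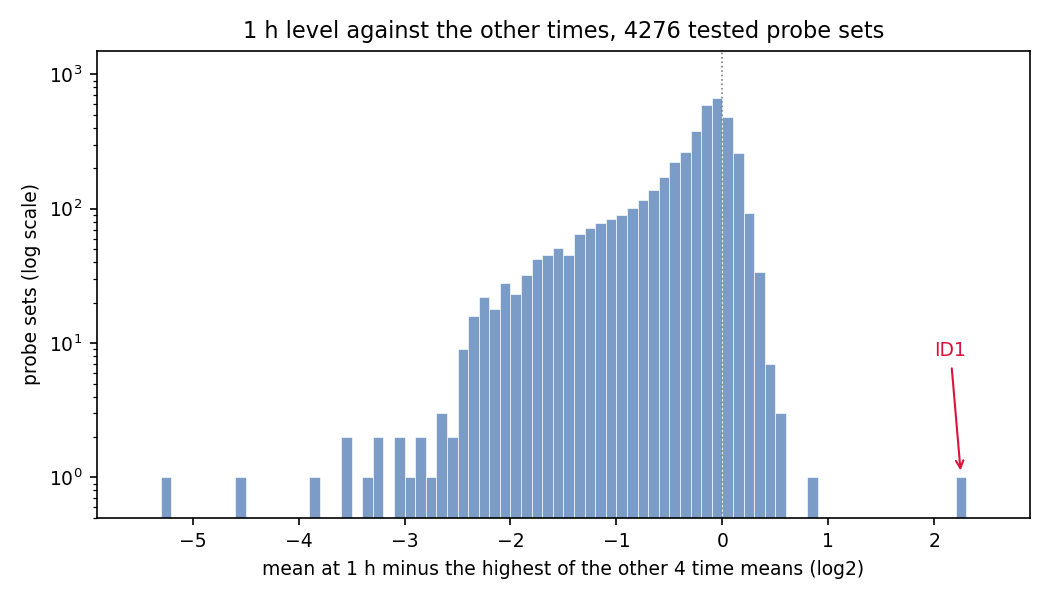
Height of the 1 h pulse, as the mean level at 1 h minus the highest of the means at the other 4 times (log2), against the number of probe sets on a log axis, over the 4276 tested. The probe set of ID1 stands at 2.25 and the next at 0.81.

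ID3, the other ID gene above the filter, had no such pulse. Its probe set, 207826_s_at, read 7.32 and 7.36 at 0 h, 7.33 and 7.40 at 0.5 h, 7.42 and 7.52 at 1 h, 7.56 and 7.51 at 3 h, and 7.44 and 7.44 at 6 h. The arrays of 0 h and 0.5 h overlapped, and those of 1 h, 3 h and 6 h lay above both arrays of 0 h. The 1 h mean was 0.13 above the 0 h mean, against 2.34 for ID1. The difference from 0 h was 0.02 at 0.5 h (95% interval -0.19 to 0.23, limma adjusted p = 0.923), 0.19 at 3 h (-0.02 to 0.40, adjusted p = 0.16) and 0.10 at 6 h (-0.11 to 0.31, adjusted p = 0.48). None passed the threshold of 0.05. With arrays set to the same median, the 3 h difference was 0.50 and passed (adjusted p = 0.0155), as it did after quantile normalization (0.52, adjusted p = 0.0124). The 6 h difference passed after quantile normalization (0.37, adjusted p = 0.0482).

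ID2 and, outside the members, ID4 were below the filter at all times. The levels of ID2, which is prominent in innate-like lymphocytes, ran from 3.13 to 3.33 for 201565_s_at and from 2.25 to 2.33 for 201566_x_at. No ID2 mean moved by more than 0.08 from 0 h. The 3 probe sets of ID4 ran from 2.85 to 3.54. At such levels the arrays do not show whether these RNAs were present.

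**Figure D2:**
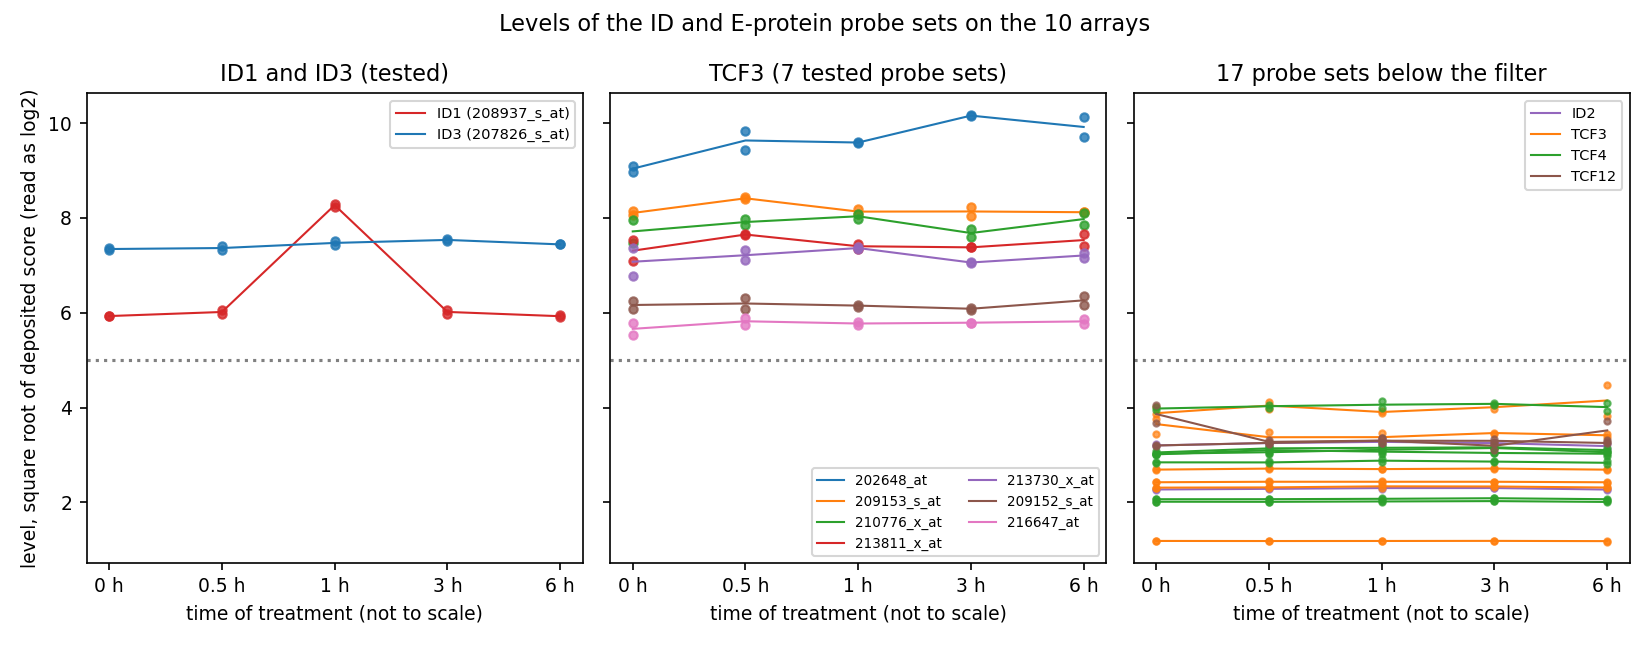
Level (square root of the deposited score, read as log2) of ID and E-protein probe sets against time in hours, on an axis not to scale, with a point for each array, a line through the means and a dotted line at the filter of 5. ID1 leaves its level of 5.93 at 1 h alone, ID3 stays between 7.32 and 7.56, and the TCF3 probe sets differ among themselves.

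TCF3, which encodes the E12 and E47 proteins and is the E protein most studied in lymphocytes, had 13 probe sets, of which 7 passed the filter. The probe set 202648_at was higher than at 0 h at every later time, and the other 6 moved by at most 0.34 at any time. The array values of 202648_at were 8.97 and 9.10 at 0 h, 9.43 and 9.83 at 0.5 h, 9.60 and 9.58 at 1 h, 10.14 and 10.17 at 3 h, and 9.70 and 10.13 at 6 h. No array of a later time overlapped the 0 h arrays. At 3 h it rose by 1.12, which is 2.17-fold (SE 0.171, limma adjusted p = 0.00359). At 6 h the rise was 0.88, or 1.84-fold (adjusted p = 0.00866), and at 0.5 h it was 0.59, or 1.51-fold (adjusted p = 0.0493). The 1 h mean stood 0.55 above that of 0 h. The 3 h call was kept under every alternative run, but the 0.5 h call was lost under 10 of them, among them the fit without 0 h replicate 1 (adjusted p = 0.236), without 0 h replicate 2 (0.103) and without 0.5 h replicate 2 (0.272). It was also lost without either array of 1 h (0.0777) or of 3 h (0.0639), which enter only through the shared spread. The 6 h call was lost without 0 h replicate 1 (adjusted p = 0.0647).

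The other 6 probe sets of TCF3 were not called at 0.5 h, 3 h or 6 h. Their levels correlated with that of 202648_at over the 10 arrays at r of -0.26 to 0.47, a description of arrays that share their times. The probe set with the next number, 202649_x_at, is annotated to RPS19, a ribosomal protein gene, and differed from 0 h by 0.28 at 3 h (adjusted p = 0.071). The other tested probe set of RPS19, 213414_s_at, differed by 0.01 at 3 h (adjusted p = 0.967). Which transcript the probes of 202648_at read was not tested, so its rise is given for that probe set and not for TCF3 as a whole.

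Among those 6, 209153_s_at was higher at 0.5 h than at 0 h, with arrays of 8.07 and 8.14 at 0 h, 8.43 and 8.39 at 0.5 h, 8.08 and 8.18 at 1 h, 8.23 and 8.04 at 3 h, and 8.12 and 8.12 at 6 h. The 0.5 h arrays lay above all others of this probe set, but the difference of 0.31 (95% interval 0.07 to 0.54) missed the threshold (adjusted p = 0.0786). It passed with arrays set to the same median (0.44, adjusted p = 0.0308) and after quantile normalization (0.42, adjusted p = 0.0342), where the difference at 3 h passed as well (0.35, adjusted p = 0.0463). In the main fit the 3 h difference of this probe set was 0.03.
For 213811_x_at the arrays read 7.08 and 7.53 at 0 h, 7.63 and 7.67 at 0.5 h, 7.45 and 7.35 at 1 h, 7.38 and 7.38 at 3 h, and 7.65 and 7.41 at 6 h. The 0 h replicates of this probe set were wider apart than those of any other time, and the 0.5 h difference of 0.34 had an adjusted p of 0.19. Without 0 h replicate 2 it was 0.57 (adjusted p = 0.0437).
The replicates of 0 h were also wide apart for 210776_x_at, which read 7.48 and 7.95 at 0 h, 7.85 and 7.97 at 0.5 h, 8.08 and 7.99 at 1 h, 7.76 and 7.60 at 3 h, and 8.10 and 7.85 at 6 h. The same held for 213730_x_at, with 6.78 and 7.37 at 0 h, 7.32 and 7.11 at 0.5 h, 7.35 and 7.38 at 1 h, 7.06 and 7.06 at 3 h, and 7.16 and 7.26 at 6 h. In each of these probe sets 0 h replicate 1 was the lowest array of the 10. The dimmest of the tested TCF3 probe sets were 209152_s_at, whose arrays ran from 6.06 to 6.35, and 216647_at, whose arrays ran from 5.54 to 5.89. Neither was called, with adjusted p of 0.352 or more at 0.5 h, 3 h and 6 h, although 216647_at at 3 h passed with arrays set to the same median (0.44, adjusted p = 0.037) and after quantile normalization (0.41, adjusted p = 0.0419).
Over these 6 probe sets the smallest and largest differences were 0.03 and 0.34 at 0.5 h, -0.01 and 0.32 at 1 h, -0.08 and 0.13 at 3 h, with 0.02 and 0.26 at 6 h. At 0.5 h and at 6 h all 6 differences were above 0, and at 3 h 3 of them were. The 6 untested probe sets of TCF3 had levels of 1.18 to 4.47.

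TCF4 and TCF12 were below the filter on every probe set. The 7 probe sets of TCF4, the E protein of plasmacytoid dendritic cells, ran from 2.00 to 4.13 and their means moved by at most 0.12. TCF12, which pairs with TCF3 in thymocytes, was read by 215611_at at 3.20 to 3.35. Its other probe set, 208986_at, was the member below the filter that moved most. It read 3.67 and 4.06 at 0 h, 3.23 and 3.32 at 0.5 h, 3.26 and 3.35 at 1 h, 3.28 and 3.11 at 3 h, and 3.33 and 3.71 at 6 h. The arrays of 0.5 h, 1 h and 3 h lay below both arrays of 0 h, and those of 6 h overlapped them. The means differed from 0 h by -0.59, -0.56, -0.67 and -0.34 in time order, with no test at this level. The largest movement of any other untested member was 0.28, for 209151_x_at of TCF3.

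**Figure D3:**
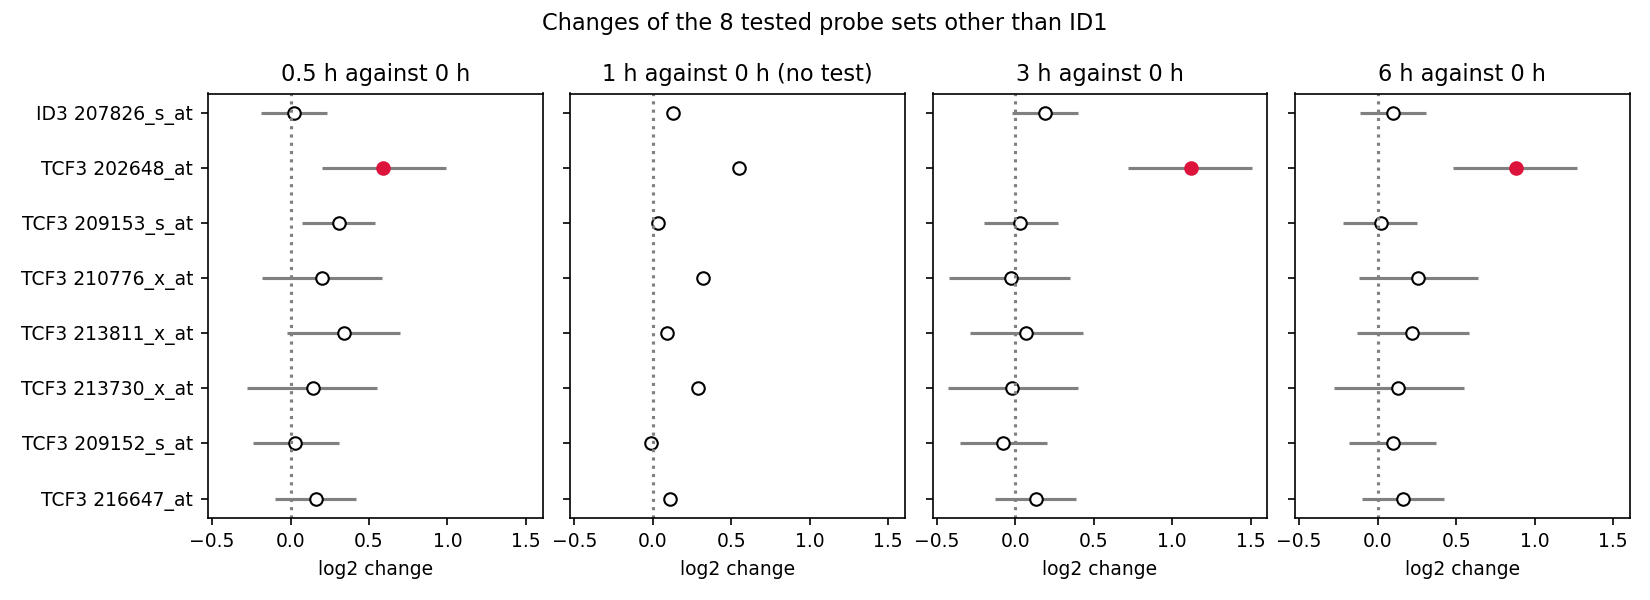
Difference from 0 h (log2) with its 95% interval for the 8 tested probe sets other than ID1, at each later time. Filled points are called and open points are not. Of the 8, 202648_at, annotated to TCF3, was called at 0.5 h, 3 h and 6 h, and the 1 h values carry neither interval nor test.

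Of the 8 tested members other than ID1, 1 was called higher and 0 lower by limma at each of 0.5 h, 3 h and 6 h, the same probe set each time. That is 12.5% of the members, where 17.0% of all tested probe sets were called at 0.5 h, 28.9% at 3 h and 25.7% at 6 h. Calls over all probe sets were mostly lower: 1.92% were higher and 15.1% lower at 0.5 h, 2.53% and 26.4% at 3 h, and 4.07% and 21.6% at 6 h. Without 202648_at, 0 of 7 members were called by limma at these times. At an unadjusted p under 0.05 the 8 members gave 2 probe sets at 0.5 h, 1 at 3 h and 1 at 6 h. Their median difference was 0.18 at 0.5 h, 0.05 at 3 h and 0.14 at 6 h, beside 0.01, -0.15 and -0.14 over all tested probe sets.

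The 8 genes whose levels followed ID1 most closely over the 10 arrays were MRPS16 (Pearson r = 0.92), MT1X (0.86), ATP5MC3 (0.85), UROS (0.85), MRPS11 (0.84), LSM6 (0.83), TMEM208 (0.81) and BLVRA (0.80). The likeness was taken over tested genes whose 5 time means spanned at least 0.5, and it rests on the same 2 arrays of 1 h. BLVRA passed the filter only through these arrays, so its likeness to ID1 is partly set by the filter. MRPS16, a mitochondrial ribosomal protein gene, read 7.37 and 7.22 at 0 h and 7.86 and 7.73 at 1 h, a difference of 0.50. MT1X differed by 0.79 at 1 h and the others by 0.35 to 0.61, against 2.34 for ID1. The list depended on how likeness was measured. It shared 1 of its 8 genes with the list by Spearman's rho and 3 with the list from arrays set to the same median.

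Genes around the ID and E proteins were taken from 6 lists of 178 genes in all, of which 48 were tested by their brightest probe set. None was called higher and 9 lower at 0.5 h (18.8%), 1 and 11 at 1 h (25.0%), 1 and 13 at 3 h (29.2%) and 5 and 8 at 6 h (27.1%). The same rule called 15.5%, 26.7%, 28.2% and 24.8% of 2819 genes, so the shares were near the background. In time order, 1.70%, 4.04%, 2.34% and 4.40% of the 2819 genes were higher and 13.8%, 22.6%, 25.8% and 20.4% lower. Among the higher list calls at 6 h, BHLHE40 and IER3 passed the filter only through their 6 h arrays. With arrays set to the same median, the split of higher to lower calls was 3 to 9 at 0.5 h, 12 to 9 at 1 h, 10 to 10 at 3 h and 8 to 4 at 6 h, and after quantile normalization it was 3 to 9, 9 to 10, 7 to 10 and 7 to 4. The direction of the lists therefore depended on the scaling. The median of the tested probe sets lay 0.13 to 0.31 below that of 0 h at the later times. The median of their differences from 0 h was 0.01, -0.03, -0.15 and -0.14 in time order. Meanwhile the mean of the 6 probe sets for 18S rRNA rose from 9.03 ± 0.88 (SD, n = 2) by 1.41 to 2.63 and that of 18 spike-in probe sets by 0.25 to 0.76. The part of these shifts in the list counts was not tested.

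**Figure D4:**
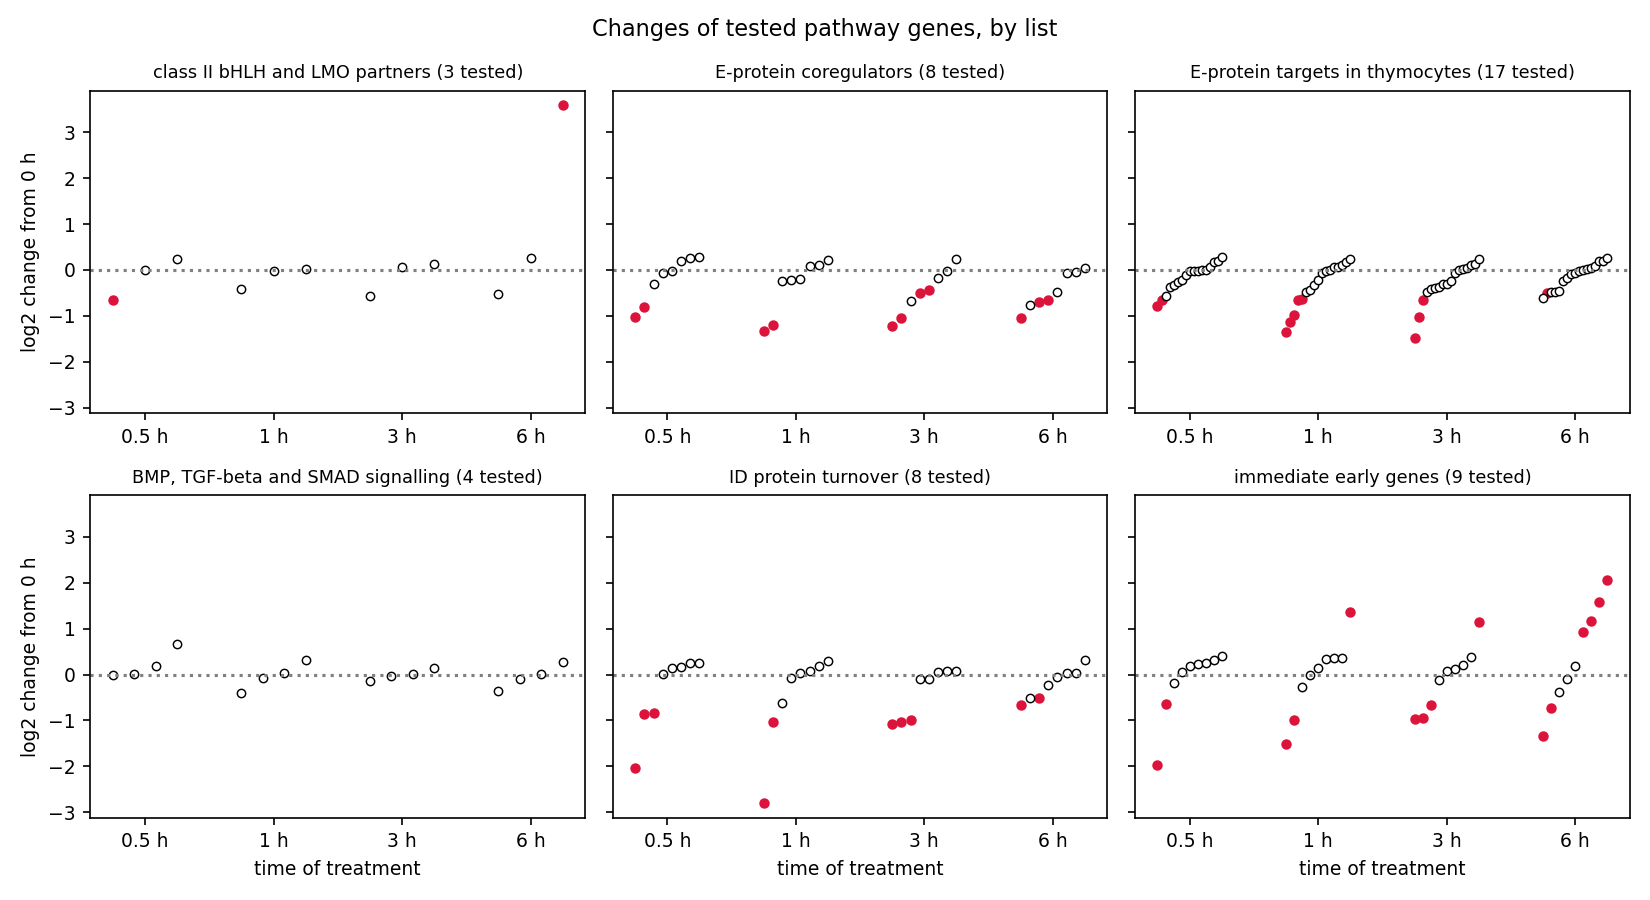
Difference from 0 h (log2) of each tested gene in the 6 lists, by list and time, with called genes as filled points. Calls lie mostly below 0. At 6 h the immediate early list had 4 higher and 2 lower, and the class II list had 1 higher (BHLHE40) and 0 lower. Of all 2819 genes, 4.40% were higher and 20.4% lower at 6 h. BHLHE40 and IER3 passed the filter only through their 6 h arrays.

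The list of class II partners, basic helix-loop-helix and LMO genes, was mostly below the filter, with 3 of 29 on the array tested. It also holds the repressors HES1 and BHLHE40, and which of its genes pair with E proteins was not tested. HES1, a Notch-induced repressor, read 7.36 and 7.35 at 0 h and 6.63 and 6.75 at 0.5 h on 203395_s_at. At 0.5 h it had fallen by 0.66 on the log2 scale (limma adjusted p = 0.0051) and read 7.35 and 7.31 at 1 h. Its other tested probe set, 203394_s_at, differed by -0.47 at 0.5 h (adjusted p = 0.122). BHLHE40, a repressor of clock genes, ran from 2.65 to 2.75 up to 3 h and read 6.48 and 6.06 at 6 h. That was a rise of 3.59 (limma adjusted p = 9.64e-06), or of 1.27 when levels under 5 were set to 5. BHLHE40 passed the filter only through its 6 h arrays, so the filter and the call rest on the same arrays. TAL1, the leukaemia oncogene whose product binds E proteins, read 6.42 and 6.09 at 0 h, 6.18 and 6.79 at 0.5 h, 5.85 and 5.82 at 1 h, 5.74 and 5.62 at 3 h, and 5.73 and 5.72 at 6 h. The arrays of TAL1 from 1 h on lay below those of 0 h, but the differences were not called (adjusted p of 0.153 at 1 h, 0.0576 at 3 h and 0.0797 at 6 h). LYL1 and LMO2 were below the filter, at 4.26 to 4.32 and 3.71 to 3.80.

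Among 17 tested thymocyte genes listed as E-protein targets, 2, 5, 3 and 1 were called lower in time order and none higher. Over all 2819 genes 13.8%, 22.6%, 25.8% and 20.4% were lower and 1.70%, 4.04%, 2.34% and 4.40% higher. With arrays set to the same median 3 of the 17 were higher and 3 lower at 1 h, and 3 and 2 at 3 h. A link of these calls to E-protein activity was not tested. GATA3, a T-lineage master regulator, read 8.05 and 7.99 at 0 h, 7.15 and 6.62 at 1 h and 7.93 and 7.97 at 6 h. Its lowest arrays were those of 1 h, when it had fallen by 1.13 on the log2 scale (adjusted p = 0.00165). CDKN1B, a cell cycle inhibitor, fell by 0.99 at 1 h (adjusted p = 0.0043). DNTT, which adds bases at antigen-receptor joins, fell by 1.03 at 3 h (adjusted p = 0.00606), a call lost in the fit of the 4 arrays compared (0.052). Calls that did not outlast leaving out an array were those of BCL11B at 1 h (-1.36) and 3 h (-1.49), CDKN1B at 0.5 h (-0.78), LEF1 at 3 h (-0.65) and CXCR4 at 6 h (-0.50). The T-cell receptor partner gene PTCRA, tested on 2 probe sets, moved by at most 0.19 (adjusted p of 0.441 or more), and NOTCH1 differed by -0.48 at 1 h (adjusted p = 0.0608).

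The list of E-protein coregulators, which also holds CBFB, gave 2, 2, 4 and 3 lower calls of 8 in time order and no higher call. Of all 2819 genes, 13.8%, 22.6%, 25.8% and 20.4% were lower and 1.70%, 4.04%, 2.34% and 4.40% higher. With arrays set to the same median 1, 2, 1 and 0 of the 8 were higher. Recruitment of these genes' products by E proteins was not tested. CBFB, the partner of RUNX factors, fell by 1.32 at 1 h (adjusted p = 0.00138), and HDAC1, a histone deacetylase, fell by 0.70 at 6 h (adjusted p = 0.00588). HDAC2 fell by 1.20 at 1 h, a call lost without the filter (adjusted p = 0.06), and PRMT5 by 0.65 at 6 h, a call lost under both rescalings. In the BMP, TGF-beta and SMAD list, the route by which ID1 is known to be induced, 4 of 33 genes on the array were tested. Of these 4, 0 were called by limma at any time, where 15.5%, 26.7%, 28.2% and 24.8% of all 2819 genes were. Once arrays were set to the same median, 1 of the 4 was higher at 0.5 h, 1 h and 3 h.

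Genes that act on ID protein turnover gave 3, 2, 3 and 2 lower calls of 8 and none higher. Among the 2819 genes, 13.8%, 22.6%, 25.8% and 20.4% were lower and 1.70%, 4.04%, 2.34% and 4.40% higher. Once arrays were set to the same median, 0, 2, 2 and 1 of the 8 were higher. USP1, which removes ubiquitin from ID proteins, read 5.26 and 5.09 at 0 h, 4.42 and 4.20 at 0.5 h, 4.65 and 4.47 at 1 h, 4.40 and 3.95 at 3 h, and 5.15 and 5.85 at 6 h. USP1 fell by 0.86 at 0.5 h (adjusted p = 0.0434), and at 3 h it fell by 1.00 (0.0175), at levels mostly under 5. Both calls were lost when such levels were set to 5, and the 0.5 h call was lost under 11 alternatives in all. The other probe set of USP1, 202412_s_at, did not pass the filter and differed by -0.38 at 0.5 h and -1.09 at 3 h. Its replicates were far apart at 0 h (4.97 and 3.83) and at 6 h (4.17 and 5.72). COPS5, a signalosome subunit, fell by 1.04 at 1 h (adjusted p = 0.00288) and at 3 h (0.00424). PSMD14, a proteasome deubiquitinase, fell by 2.80 at 1 h (adjusted p = 0.00113), to arrays of 4.17 and 4.51. With levels under 5 set to 5 the difference of PSMD14 was -2.14. ANAPC5, of the anaphase-promoting complex, fell by 0.50 at 6 h. That call of ANAPC5 was lost under 7 alternatives, among them both rescalings, where the difference was -0.26 (adjusted p of 0.167 and 0.141), and the fits without 0 h replicate 1 (-0.36) or either array of 6 h.

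Of the immediate early genes, the class that serum switches on within minutes, 9 of 32 on the array were tested. IER2, of that class, was the only gene of the 6 lists called higher at 1 h. It read 6.81 and 7.46 at 0 h and 8.68 and 8.32 at 1 h, a rise of 1.37 (adjusted p = 0.00618) that was lost without the filter (0.0614). IER2 overlapped 0 h again at 3 h, at 7.58 and 6.95, and read 7.97 and 8.16 at 6 h, a rise of 0.93 (adjusted p = 0.0344). At 6 h JUND, an AP-1 subunit gene, rose by 1.59 (adjusted p = 0.00193). IER3 passed the filter only through its 6 h arrays, the arrays of its higher call. The rise of IER3 was 2.06, or 0.56 when levels under 5 were set to 5. KLF10, a gene induced by TGF-beta, fell by 1.51 at 1 h (adjusted p = 0.00193), which was -0.68 with that floor, and its rise of 1.17 at 6 h was lost without 0 h replicate 1 (adjusted p of 0.0565 to 0.0597 where lost). MYC fell by 1.33 at 6 h and MCL1, a survival factor, fell by 1.00 at 1 h.

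Over the tested probe sets r was 0.991 to 0.994 between replicates and 0.949 to 0.992 between times. Of 15 T-lineage markers, 9 passed the filter, among them CD3D, CD1A, LCK and DNTT, and CD2, CD4, CD7, CD8A, CD28 and RAG1 did not. None of the markers of B, myeloid or erythroid cells on the array passed, and of 7 non-blood markers COL1A1 did.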

How the data were processed

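RNA of 10 samples was read on 10 arrays, 2 per time. Per the submitters' processing notes, the authors used GCRMA, and each probe set of the deposited table holds a score. Its scale and any later steps are not given in the sources used here. The square root of the score was read as log2, a reading of the data on which all folds depend. Probe sets with at least 2 of 10 arrays at 5 or higher (score 25) were tested, 68 controls left out. Symbols came from the platform annotation. Tests used limma 3.58.1 in R 4.3.3, fitted to the 5 times without covariates over all 10 arrays (residual degrees of freedom 5, prior 3.06), and the procedure was tested on simulated data. A probe set was called at a Benjamini-Hochberg adjusted p under 0.05 over all 4276 tested. ID1 and the 1 h contrast of the members got no test. Precision is limited by the number of arrays.

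The members and lists were chosen with earlier results of these data known. Genes named were all member probe sets, from each list at each time the called genes with the 3 highest and the 3 lowest changes, 8 genes most like ID1 by Pearson r, and ID4, TAL1, LYL1, LMO2, USP1, HES1, PTCRA and NOTCH1. For length, not every call of a list gene is named at each time. The main fit did not pair arrays by replicate number, since the labels do not say that the numbers pair them. Alternatives were equal array medians, another quantile normalization, no filter or a stricter one, a floor at 5, log2 or no transformation of the scores, a replicate block, fits of 4 arrays, and each array left out. The counts without the brightest TCF3 probe set (202648_at) were added after seeing the data.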

Additional observations from a re-analysis of the deposited data

How the results depend on the processing

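No change of a named gene or member turned its direction while called. Over 68 tested changes and 1277 comparisons with an alternative, 1140 stayed on the same side of the threshold, 128 lost the call and 9 gained it. Of the 1140, 20 changed sign, none of them called in either fit and none over 0.29 in size. Against 1 called member at each of 0.5 h, 3 h and 6 h, equal array medians gave 2 at 0.5 h and 3 at 3 h, and quantile normalization gave 2, 4 and 2. No member was called at 0.5 h or 6 h without the filter, at 0.5 h on log2 of the deposited scores or in the fit of the 4 arrays compared, or at any of the 3 times without 202648_at (0 of 7), an alternative chosen after seeing the data. Leaving out each array gave 0 to 1 at 0.5 h, 1 to 1 at 3 h and 0 to 1 at 6 h. The list genes called numbered 3 without the filter at 0.5 h (9 in the report), 21 with equal medians and 19 with quantile normalization at 1 h (12), and 8 without the filter and 8 in the fit of the 4 arrays at 3 h (14). Leaving out each array gave 2 to 9, 9 to 13, 7 to 14 and 7 to 14 in time order. The low counts came without 0 h replicate 1 (2 at 0.5 h, 8 at 3 h, 7 at 6 h), without either 0.5 h array (3 and 2 at 0.5 h) and without 3 h replicate 2 (7 at 3 h). The 1 h difference of ID1 was 2.63 with equal medians, 2.55 with quantile normalization, 0.96 on log2 of the scores and 33.20 in untransformed score units, and 2.30 to 2.37 with each array left out. Of the 8 genes most like ID1, 1 was shared by Spearman's rho and 3 with equal medians. Deviations of same-numbered arrays correlated at -0.231 to 0.147 over 10 pairs of times, 2 of them over 0.1. These values gave no clear sign of pairing, but with 2 arrays per time they cannot exclude it. A fit with the replicate number as a block gave 1, 1 and 1 called members, list counts of 9, 14, 14 and 12, and 2.34 for ID1 at 1 h. Changes of members under level 5 are beyond what these arrays resolve.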
